A study of Mus musculus with 4 samples.

Results

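The mitochondrial genome of the mouse encodes a small set of proteins, and every one of them is a subunit of a respiratory complex of the inner mitochondrial membrane. Described here are 10 of these genes. They are 5 subunits of complex I (mt-Nd1, mt-Nd2, mt-Nd4, mt-Nd5 and mt-Nd6), cytochrome b of complex III (mt-Cytb), the 3 catalytic-core subunits of complex IV (mt-Co1, mt-Co2 and mt-Co3), and subunit a of the ATP synthase (mt-Atp6). The rule that chose them used the gene name and a deposited position on the mitochondrial genome, and no measured value. Earlier results of these data were known when they were chosen. The deposited tables list 15906 genes in all, of which 15 lie on the mitochondrial genome. All 10 were listed in every library.

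The study sorted adipose progenitor cells of C57BL/6 mice on magnetic columns, from subcutaneous or visceral fat, exposed them to an adipogenic cocktail and then gave them dexamethasone (DEX, a synthetic glucocorticoid) at 1 µM or PBS. RNA sequencing was done on 4 samples, which were PDGFRα+ (CD140+) cells with DEX, PDGFRα+ cells with PBS, CD137+ cells with DEX and CD137+ cells with PBS. All 4 groups thus share the strain, the method of sorting and the adipogenic cocktail, and were sorted for different surface markers by cell type. The labels give 1 sample per group, name neither the depot nor the number of animals of a sample, and do not say whether animals were pooled. PDGFRα, the gene Pdgfra, is a receptor found on most adipose progenitors, and CD137, the gene Tnfrsf9, has been used as a marker of precursors of beige, heat-producing fat cells.

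The values are FPKM, which count fragments relative to transcript length and to the size of the library, so levels are per length. There are 3 tables with 2 libraries each. A treatment table sets DEX beside PBS in PDGFRα+ cells, another does so in CD137+ cells, and a between-type table sets PDGFRα+ DEX beside CD137+ DEX. Each DEX label therefore has 2 columns of values in different tables. These columns differ, and the sheet titles number them differently, so they were kept as 6 libraries. No table holds a replicate, so no test between conditions was made, and every difference below is one between a pair of libraries, named by their labels. Differences are in log2(FPKM + 1). A gene is called if its levels are 2-fold apart and the higher one reaches 1 FPKM.

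Several library-wide measures bear on all that follows. The tables list 14208 to 15009 genes and the libraries sum to 430997 to 449283 FPKM, but the depth in reads is not known from FPKM. The label checks went against the labels in part. Tsc22d3, a gene that glucocorticoids induce, stood at 30.2 FPKM in the library labelled PDGFRα+ DEX of the treatment table, against 113 FPKM with PBS, and at 38.5 FPKM in the library labelled CD137+ DEX, against 76.1 FPKM with PBS. In the between-type table it stood at 122 FPKM in the library labelled PDGFRα+ DEX and 28.7 FPKM in that labelled CD137+ DEX. Fkbp5, another glucocorticoid-induced gene, stood at 35.8 and 73.8 FPKM in the libraries labelled PDGFRα+ DEX of the treatment and between-type tables, against 64.7 FPKM with PBS, and at 66.2 and 47.7 FPKM in those labelled CD137+ DEX, against 68.1 FPKM with PBS. Both genes were thus lower in the treatment tables' libraries labelled DEX, and every direction of DEX minus PBS below rests on labels that these genes put in doubt. In the between-type table Pdgfra stood at 146 FPKM in the PDGFRα+ library and 67.7 FPKM in the CD137+ library. The treatment tables had the reverse order, across separate normalizations. Pdgfra stood there at 57.9 FPKM (DEX) and 136.7 FPKM (PBS) in PDGFRα+ libraries, against 154.4 FPKM (DEX) and 164.4 FPKM (PBS) in CD137+ libraries. Tnfrsf9 stood at 4.81 FPKM in the PDGFRα+ library of the between-type table and 0.161 FPKM in its CD137+ library. It was not listed in the CD137+ treatment table. Pdgfra and Tnfrsf9 thus put the cell type labels in doubt as well, and with them every difference between cell types below.

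Mitochondrial DNA is transcribed from both strands as long precursors. The RNA is cut at the tRNAs that lie between most genes, and most of the mRNAs are then tailed with poly(A). Because the genes share precursors, their steady-state levels are set largely after transcription, by processing and by stability factors such as LRPPRC and SLIRP. The encoded subunits form the core of complexes I, III, IV and V, and are joined there by a larger number of subunits that are encoded in the nucleus and imported. In adipose tissue, respiratory capacity is known to be high in brown and beige fat cells.

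The 3′ ends of several of these genes are shown because they decide which reads can be told apart. All are from GENCODE M21 transcripts on GRCm38, written 5′ to 3′ on the strand of the gene, 30 bases each, with the stop codon in capitals. Cytochrome b ends in a lone base of its stop codon, which the poly(A) tail completes. It has no near-identical copy elsewhere in the annotation.
mt-Cytb: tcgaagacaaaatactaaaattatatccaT
The ends of mt-Nd5 and mt-Nd6 face each other. They share 14 bases (chrM:13552-13565) on opposite strands, and the reverse complement of the end of the one gene is the end of the other.
mt-Nd5: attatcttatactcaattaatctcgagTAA
mt-Nd6: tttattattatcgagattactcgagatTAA
The library kit named in the labels does not mark strand, so reads of mt-Nd6 and of RNA from the opposite strand cannot be told apart.
The ends of mt-Co2 and of a nuclear copy, Gm28661, are shown because they are the same sequence up to the stop codon. The copy, annotated on chr1:24614885-24615565 on the minus strand, ends just before the stop codon and is printed in lower case throughout.
mt-Co2: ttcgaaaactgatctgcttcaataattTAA
Gm28661: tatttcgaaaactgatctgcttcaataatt

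By position (GRCm38, mitochondrial chromosome), mt-Nd1 spans 2751 to 3707, mt-Nd2 3914 to 4951, mt-Co1 5328 to 6872, mt-Co2 7013 to 7696, mt-Atp6 7927 to 8607, mt-Co3 8607 to 9390, mt-Nd4 10167 to 11544, mt-Nd5 11742 to 13565, mt-Nd6 13552 to 14070 and mt-Cytb 14145 to 15288. Each is a single exon. mt-Nd6 is the only one of the 10 on the minus strand, and 28.1% of its bases are G, against 8.0% to 16.1% in the others. The 681 to 1824 bases of the others compare with 519 bases of mt-Nd6, the shortest.

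Together the 10 genes took between 3.34% and 7.92% of all summed FPKM of a library. The share was 7.29% in the PDGFRα+ DEX library of the treatment table and 3.63% in the PDGFRα+ DEX library of the between-type table, against 3.34% in the PDGFRα+ PBS library. In CD137+ cells it was 7.92% and 7.32% in the DEX libraries of the treatment and between-type tables, against 7.79% with PBS. The PDGFRα+ PBS library and the PDGFRα+ DEX library of the between-type table were thus low, and the other 4 libraries were high and close to each other. All 10 genes were among the 50 highest genes in each of those 4 libraries, against 5 of them in the PDGFRα+ DEX library of the between-type table and 4 of them in the PDGFRα+ PBS library.

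Complex I, NADH dehydrogenase, passes electrons from NADH to ubiquinone, and its 7 mitochondrially encoded subunits form the proton-pumping membrane arm. mt-Nd1, at the joint between the 2 arms of the complex, had 3204 FPKM (treatment table) and 1112 FPKM (between-type table) in PDGFRα+ DEX libraries, against 937 FPKM with PBS, and 3607 and 3246 FPKM in CD137+ DEX libraries, against 3315 FPKM with PBS. mt-Nd2, a pump-like subunit of that arm, had 1452 and 663 FPKM in the PDGFRα+ DEX libraries, against 553 FPKM with PBS, and 1843 and 1804 FPKM in the CD137+ DEX libraries, against 1700.4 FPKM with PBS. For both genes the DEX library of the treatment table was the PDGFRα+ library nearest to the CD137+ libraries, for mt-Nd1 at 3204 against 3246 FPKM. mt-Nd4, another pump-like subunit, had 1866 and 849.8 FPKM with DEX against 722 FPKM with PBS in PDGFRα+ cells, and 2201 and 2053 FPKM with DEX against 2057 FPKM with PBS in CD137+ cells. mt-Nd5, the outermost pump-like subunit, had 1557 and 718 FPKM with DEX against 567 FPKM with PBS in PDGFRα+ cells, and 1981 and 1709 FPKM with DEX against 1857 FPKM with PBS in CD137+ cells. For these genes too the PDGFRα+ PBS library and the PDGFRα+ DEX library of the between-type table were the lowest. mt-Nd6, a small membrane subunit, had 1153 and 586 FPKM in PDGFRα+ DEX libraries against 418 FPKM with PBS, and 1603 and 1208 FPKM in CD137+ DEX libraries against 1414 FPKM with PBS.

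Complex III, the cytochrome bc1 complex, passes electrons from ubiquinol to cytochrome c, and cytochrome b is its only mitochondrially encoded subunit. mt-Cytb had 3022 FPKM in the PDGFRα+ DEX library of the treatment table and 874 FPKM in that of the between-type table, against 727 FPKM with PBS. In CD137+ cells it had 3283 and 3363 FPKM in the DEX libraries, against 3088 FPKM with PBS. No gene of the 10 was spread more widely over the 6 libraries.

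Complex IV, cytochrome c oxidase, reduces oxygen. mt-Co1 carries the haem and copper site where this happens, and was the highest of the 10 in every library, with 9863 and 6772 FPKM in PDGFRα+ DEX libraries against 6330.03 FPKM with PBS, and 9969 and 8712 FPKM in CD137+ DEX libraries against 10172 FPKM with PBS. mt-Co2 binds the copper pair that takes electrons from cytochrome c, and had 3731 and 1982 FPKM in PDGFRα+ DEX libraries against 1830.06 FPKM with PBS, and 4399.7 and 3863 FPKM in CD137+ DEX libraries against 3872 FPKM with PBS. mt-Co3, the third core subunit, had 2988 and 1558 FPKM in PDGFRα+ DEX libraries against 1288 FPKM with PBS, and 3575 and 2888 FPKM in CD137+ DEX libraries against 3299 FPKM with PBS. For all 3 genes the same 2 PDGFRα+ libraries were the lowest, and for mt-Co1 and mt-Co3 the third lay within the range of the CD137+ libraries. The ATP synthase uses the proton gradient to make ATP, and mt-Atp6 forms part of its proton path. mt-Atp6 had 2602 and 1186 FPKM in PDGFRα+ DEX libraries against 1098 FPKM with PBS, and 3096 and 2712 FPKM in CD137+ DEX libraries against 2827 FPKM with PBS.

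**Figure D1:**
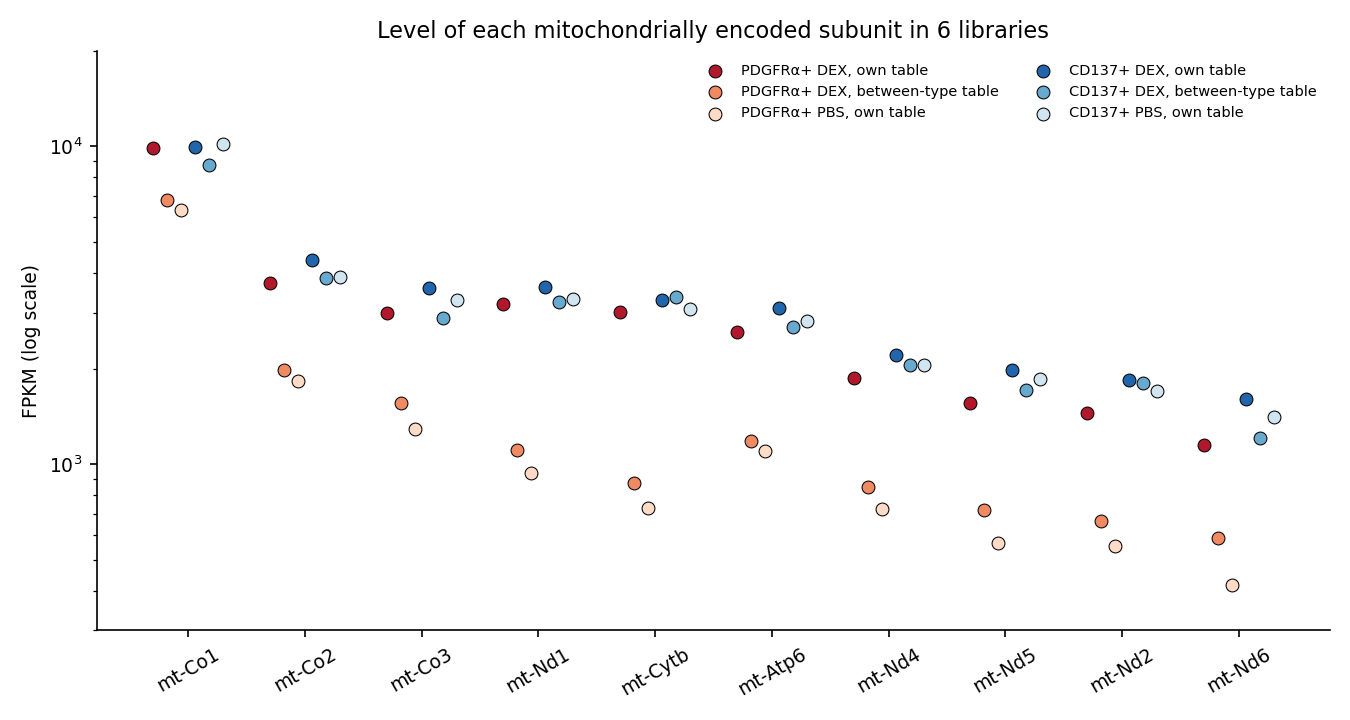
FPKM (log scale) of each of the 10 genes, ordered by mean level; each point is 1 library, red shades for PDGFRα+ cells and blue shades for CD137+ cells, with no error bars because no label has replicates within a table. The PDGFRα+ PBS library and the PDGFRα+ DEX library of the between-type table are below the other 4 for every gene, by least for mt-Co1.

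The plot of levels by library shows this order for each gene. In all 6 libraries mt-Co1 came first, mt-Co2 second and mt-Nd6 last. mt-Co1 exceeded mt-Nd6 by 8.56-fold and 11.6-fold in the PDGFRα+ DEX libraries of the treatment and between-type tables, against 15.1-fold with PBS, and by 6.22-fold and 7.21-fold in the CD137+ DEX libraries, against 7.2-fold with PBS. Between these ends mt-Nd1, mt-Cytb, mt-Co3 and mt-Atp6 changed places. mt-Nd1 and mt-Cytb were above mt-Atp6 in the 4 high libraries and below it in the other two. Neighbours in the order cannot be separated by a replicate spread, and the libraries of the same label differed by as much as 3.46-fold for mt-Cytb.

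The make-up of the summed FPKM of the 10 genes therefore differed between libraries as well as its size. mt-Co1 made up 31.4% and 41.5% of it in the PDGFRα+ DEX libraries of the treatment and between-type tables, against 43.7% with PBS. In CD137+ cells mt-Co1 made up 28.0% and 27.6% with DEX, against 30.3% with PBS. mt-Cytb went the other way, with 9.61% and 5.36% in the PDGFRα+ DEX libraries, against 5.02% with PBS, and 9.23% and 10.7% in the CD137+ DEX libraries, against 9.19% with PBS. mt-Nd1 behaved like mt-Cytb, with 10.2% and 6.82% against 6.48% in PDGFRα+ cells and 10.1% and 10.3% against 9.86% in CD137+ cells. By contrast mt-Co2, mt-Co3 and mt-Atp6 kept nearly the same share, their highest over their lowest being 1.1, 1.13 and 1.2, against 2.12 for mt-Cytb.

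**Figure D2:**
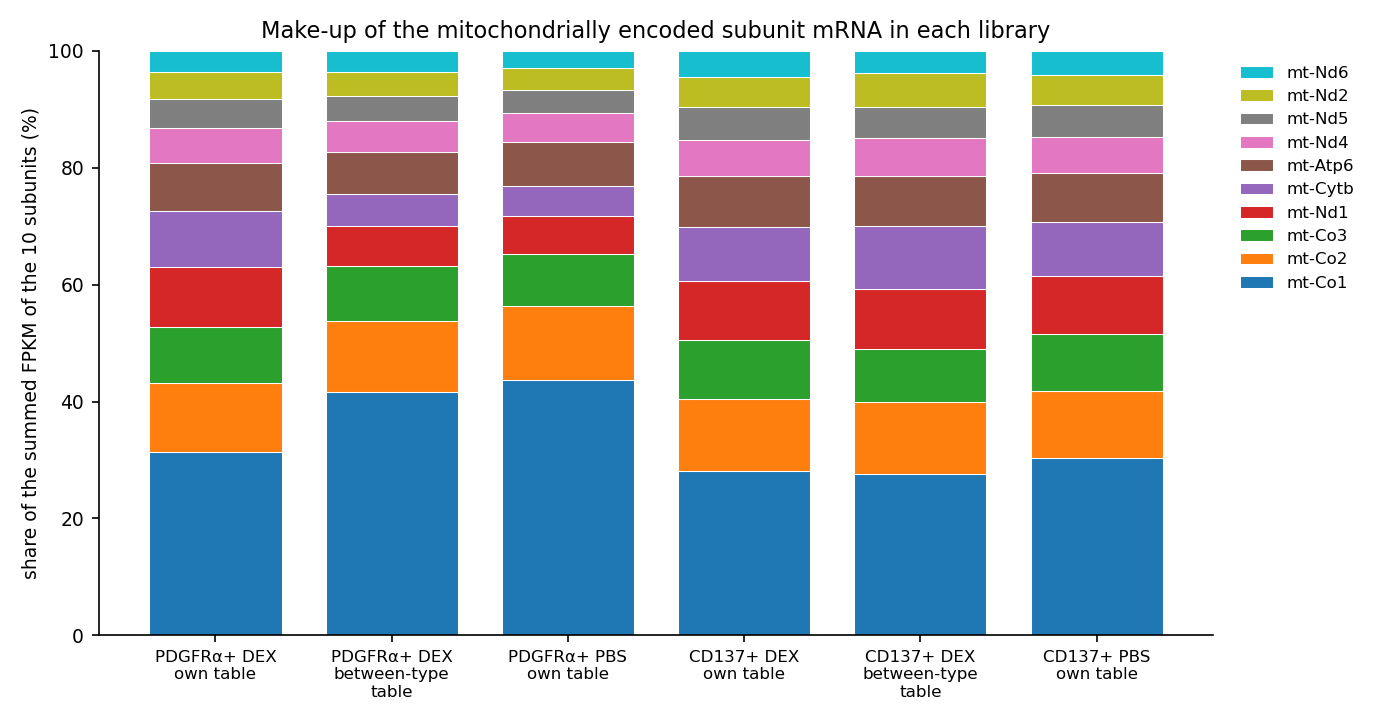
Share (%) of the summed FPKM of the 10 genes held by each gene, 1 stacked bar per library, PDGFRα+ libraries on the left and CD137+ libraries on the right. mt-Co1 takes 41.5% and 43.7% in the 2 libraries with the lowest sums and 27.6% to 31.4% in the other 4.

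These shares do not depend on how a library was scaled, because both terms come from it. As a ratio of levels, mt-Co1 over mt-Cytb was 3.26 and 7.75 in the PDGFRα+ DEX libraries of the treatment and between-type tables, against 8.71 with PBS, and 3.04 and 2.59 in the CD137+ DEX libraries, against 3.29 with PBS. The facing genes mt-Nd5 and mt-Nd6, on opposite strands, kept a ratio of levels between 1.23 and 1.41 in all 6 libraries. Both carry the same deposited span, 11741 to 14070, and the kit does not mark strand. Their levels may therefore not be separate measurements, and the part of shared reads in this ratio was not tested. mt-Atp6 and mt-Co3 likewise carry one deposited span, 7765 to 9390, which also holds mt-Atp8. The span deposited for mt-Nd4, 9876 to 11544, also holds mt-Nd4l. Whether the levels of these genes are separate measurements was not tested either.

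The first comparison asks what dexamethasone did in PDGFRα+ cells, as far as the DEX label, which Tsc22d3 and Fkbp5 went against in this table, can be relied on. In the treatment table, 9 of the 10 genes were at least 2-fold higher in the library labelled DEX than with PBS, the exception being mt-Co1, and none was lower. Over all genes 15.5% were called higher in the same table. The difference was largest for mt-Cytb, 2.05 log2 units or 4.16-fold, followed by mt-Nd1 with 1.77 log2 units or 3.42-fold. The other subunits of complex I differed by 1.37 to 1.46 log2 units. mt-Atp6, mt-Co3 and mt-Co2 differed by 1.24, 1.21 and 1.03 log2 units, and mt-Co1 by 0.64, or 1.56-fold. The median of the 10 was 1.38 log2 units, against 0.25 over all genes tested. In the authors' deposited table the q-values of the 10 ran between 0.054 (mt-Cytb) and 0.777, all above 0.05.

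Because the median gene was itself higher in the library labelled DEX, by 0.28 log2 units over the 11512 genes that reached 1 FPKM in each of the libraries, the differences were also taken relative to that shift. Then 6 of the 10 were higher, the 5 complex I genes and mt-Cytb, with a median of 1.1 log2 units, beside 9.42% of all genes. The split of all called genes moved with this scaling, with 2049 higher and 1016 lower (7.71%) as deposited, and 1242 higher and 1431 lower (10.9%) relative to the median.

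The difference rests on which DEX column is used. With the PDGFRα+ DEX library of the between-type table set against the same PBS library, across tables, 0 of the 10 were called, beside 0.177% of all genes in either direction. The 10 differences were then 0.10 to 0.49 log2 units, all positive, with a median of 0.25 against 0.03 over all genes. Between the libraries labelled PDGFRα+ DEX themselves, treatment table minus between-type table, 6 of the 10 were called higher, beside 13.4% of all genes, with a median of 1.12 log2 units and mt-Cytb at 1.79. Relative to the median difference of these libraries 2 of the 10 were called higher, beside 8.62% of all genes, with a median of 0.88 log2 units.

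Cell type markers moved along with these libraries. The summed FPKM of 10 adipocyte markers was 99.2 and 882 in the PDGFRα+ DEX libraries of the treatment and between-type tables, against 835 with PBS. In CD137+ cells the sum was 1897 and 165 with DEX, against 2549 with PBS, so that adipocyte markers were low in 2 of the 4 libraries where the 10 genes were high and highest in the other two. The 7 mesothelial markers summed to 452 and 118 FPKM in the PDGFRα+ DEX libraries, against 108 FPKM with PBS, and to 6.92 and 36.5 FPKM in the CD137+ DEX libraries, against 10.3 FPKM with PBS. In PDGFRα+ cells the keratin genes carried this sum, Krt8 with 204.5 FPKM, Krt18 with 159.6 FPKM and Krt19 with 60.3 FPKM in the DEX library of the treatment table, against 18.2, 17.3 and 7.64 FPKM with PBS. The other 4 members were lower there, among them Wt1 with 15.9 FPKM against 44.2 FPKM and Msln with 5.3 FPKM against 11.97 FPKM, and the median of the list was -0.28 log2 units. The 6 mural markers summed to 2010 and 594 FPKM in the PDGFRα+ DEX libraries, against 664 FPKM with PBS, and to 174 and 713 FPKM in the CD137+ DEX libraries, against 183 FPKM with PBS. Acta2 made up most of the sum, with 1808 and 456 FPKM in the PDGFRα+ DEX libraries, against 507 FPKM with PBS, while Notch3 had 5.24 and 6.08 FPKM with DEX, against 7.69 FPKM with PBS. In the between-type table Acta2 was at 456 FPKM in PDGFRα+ and 692 FPKM in CD137+ cells, but Des at 103 FPKM in PDGFRα+ and 5.68 FPKM in CD137+ cells, and the median of the mural list was 0.27 log2 units.

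Of 7 brown or beige markers, Ucp1, Cidea and Cox8b were listed in no table, and the list summed to 3.32 to 6.72 FPKM in PDGFRα+ libraries and 0.65 to 6.52 FPKM in CD137+ libraries. Of 8 striated muscle markers, Ckm, Myh4, Myh6, Mb and Ttn were listed in no table, and the sum was 1.94 to 8.94 FPKM in PDGFRα+ libraries and 2.76 to 10.8 FPKM in CD137+ libraries. The lymphocyte markers, 6 in all, were listed in no table. The 6 macrophage markers summed to at most 11.5 FPKM and the 6 endothelial markers to at most 30.2 FPKM in any library. The 7 progenitor markers summed to 482 and 1967 FPKM in the PDGFRα+ DEX libraries, against 1625 FPKM with PBS, and to 2347 and 601 FPKM in the CD137+ DEX libraries, against 2071 FPKM with PBS. The part of these markers in the differences of the 10 genes was not tested, and in bulk RNA fewer cells of a type and less RNA per cell cannot be told apart.

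In CD137+ cells the libraries labelled DEX and PBS of the treatment table were close for all 10 genes. None was 2-fold apart, beside 1.04% of all genes in either direction. The differences ran between -0.03 log2 units for mt-Co1 and 0.18 for mt-Co2, with a median of 0.12 against 0.05 over all genes. Apart from mt-Co1, all were slightly higher in the library labelled DEX. The CD137+ DEX library of the between-type table again gave 0 calls against the same PBS library, beside 12.3% of all genes. The median was then -0.05 log2 units, with 8 of the 10 negative, so that mt-Nd2 and mt-Cytb were slightly higher and mt-Co1 slightly lower in both DEX columns and the other 7 genes changed sign between them. The q-values of the 10 in the authors' deposited table ran between 0.838 and 0.988.

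**Figure D3:**
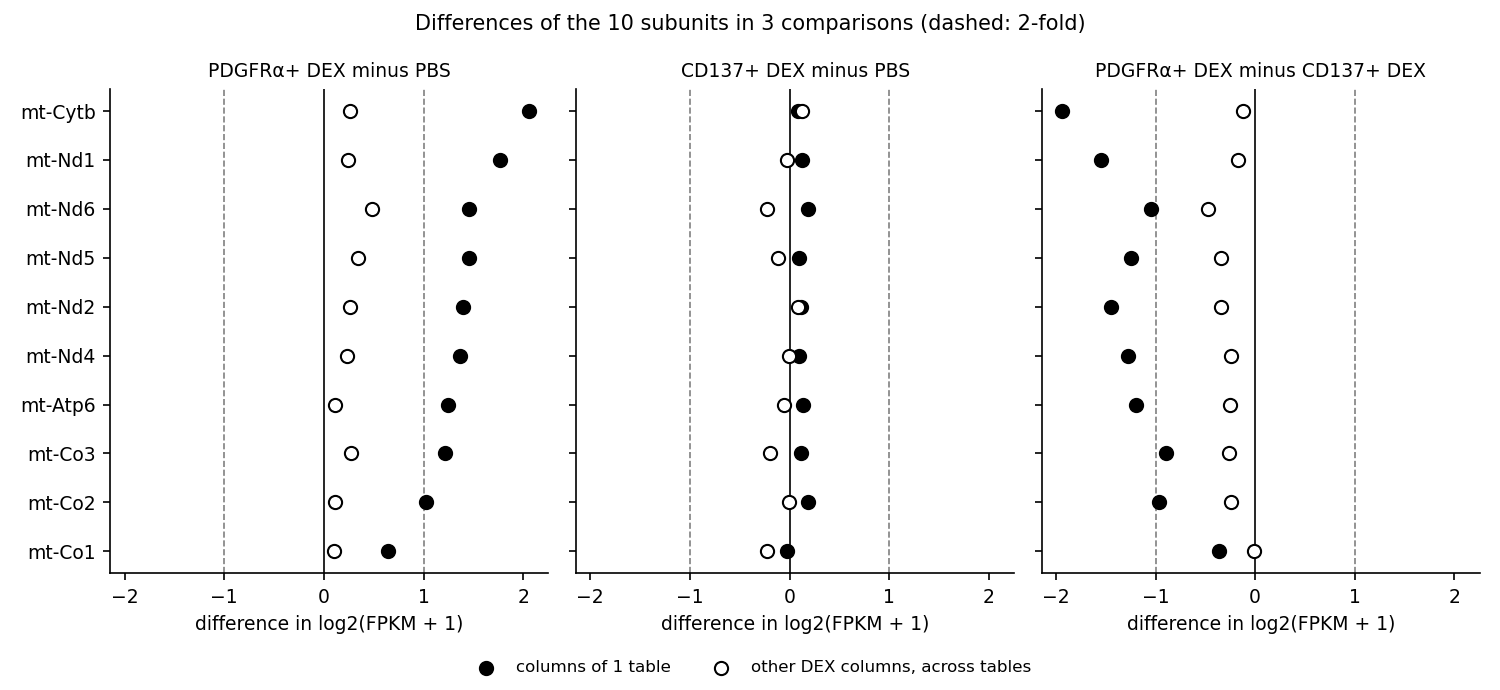
Difference in log2(FPKM + 1) of each gene in the 3 comparisons; filled points use the libraries of 1 table, open points the other DEX columns across tables, and dashed lines mark 2-fold. Filled points reach 2.05 and -1.94 for mt-Cytb in the outer panels, while all open points lie within 2-fold.

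The third comparison sets PDGFRα+ against CD137+ cells, both labelled DEX. The cell type labels are in doubt here, as Tnfrsf9 went against them in this table. Tsc22d3 stood at 122 FPKM in this PDGFRα+ DEX library, near the 113 FPKM of PDGFRα+ PBS, and at 28.7 FPKM in its CD137+ partner. Only 0.177% of all genes were called between this PDGFRα+ DEX library and PDGFRα+ PBS. Whether the libraries compared had the same treatment is thus in doubt. Of the 10 genes, 7 were at least 2-fold lower in PDGFRα+ than in CD137+ cells of the between-type table, beside 11.5% of all genes called lower, and none was higher. mt-Cytb was the lowest, at -1.94 log2 units (0.26 times the CD137+ level), then mt-Nd1 at -1.55 and mt-Nd2 at -1.44. mt-Nd4, mt-Nd5, mt-Atp6 and mt-Nd6 were at -1.27, -1.25, -1.19 and -1.04 log2 units. The complex IV genes were within 2-fold, with -0.96 log2 units for mt-Co2, -0.89 for mt-Co3 and -0.36 for mt-Co1.

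The median of the 10 was -1.22 log2 units, against -0.20 over all genes. Relative to the median difference, -0.24 log2 units, 5 of the 10 remained 2-fold lower, mt-Nd6 and mt-Atp6 no longer passing, beside 7.75% of all genes. All called genes split into 1195 higher (9.25%) and 1481 lower as deposited, and 1608 higher (12.5%) and 1001 lower relative to the median.

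Between the DEX libraries of the treatment tables, across tables, 0 of the 10 were called, beside 14.2% of all genes in either direction. The 10 differences were all negative, -0.48 to -0.02 log2 units, with a median of -0.25 against 0.08 over all genes. Under PBS, also across tables, 9 of the 10 were at least 2-fold lower in PDGFRα+ than in CD137+ cells, the exception being mt-Co1, beside 7.52% of all genes called lower. The median was then -1.56 log2 units. These comparisons share libraries with those above, and values set across tables rest on separate normalizations.

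The nuclear copies limit how well complex IV and ATP synthase genes can be read. A stretch of chromosome 1 carries near-identical copies of mt-Co2 (Gm28661), mt-Atp6 (Gm10925), mt-Co3 (Gm28437), the first 876 bases of mt-Nd4 (Gm28439) and the last 483 bases of mt-Co1 (Gm29216). The first 4 matched at 100% of the aligned bases and Gm29216 at 99.8%. Reads from such stretches cannot be assigned to one of the copies by sequence, and the authors' way of sharing them is not stated in the labels. The tables list these copies at high levels. Gm28661 had 4068 and 2155 FPKM in the PDGFRα+ DEX libraries of the treatment and between-type tables, against 1981 FPKM with PBS, and 4775 and 4376 FPKM in the CD137+ DEX libraries, against 4214 FPKM with PBS. Over the 6 libraries the copy's level was 1.08 to 1.13 times that of mt-Co2, and for Gm10925 and Gm28437 likewise 1.08 to 1.12 times that of mt-Atp6 and mt-Co3. The partial copies were lower, at 0.57 to 0.65 times mt-Nd4 and 0.23 to 0.29 times mt-Co1.

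**Figure D4:**
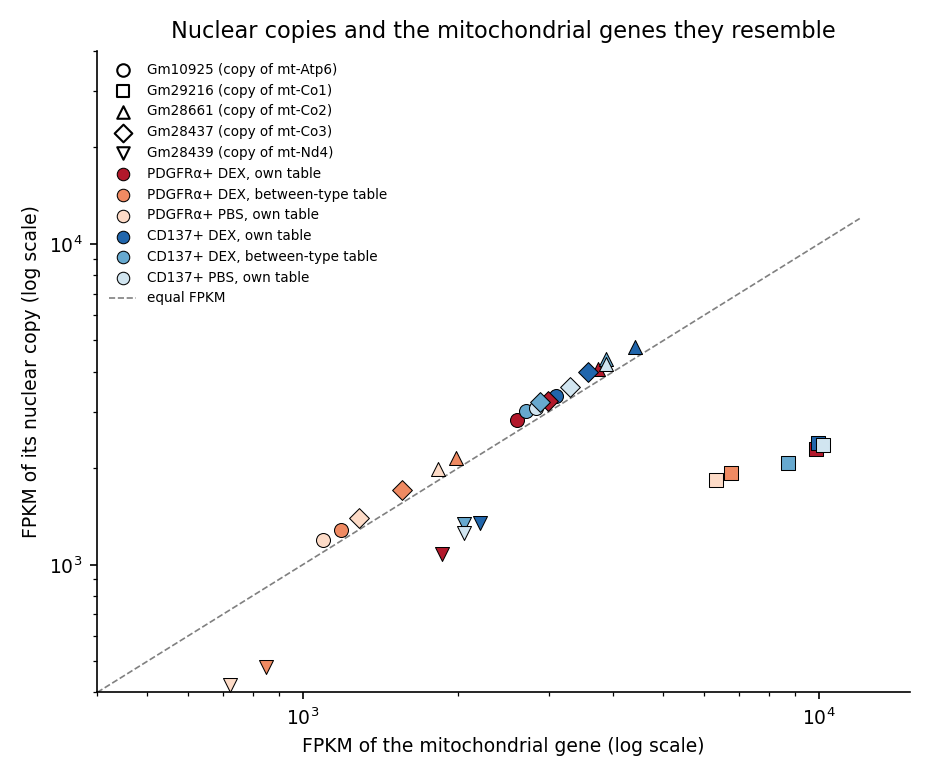
FPKM of each near-identical nuclear copy against FPKM of the mitochondrial gene it resembles, both on log scales; each symbol is a gene pair, each colour a library, and the dashed line marks equal FPKM. The full-length copies lie just above the line in all 6 libraries, at 1.08 to 1.13 times the mitochondrial gene, and the partial copies of mt-Nd4 and mt-Co1 below it.

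The plot of copies against genes shows that they moved together. In PDGFRα+ cells, DEX minus PBS, the full-length copies differed by 1.24 (Gm10925), 1.04 (Gm28661) and 1.21 (Gm28437) log2 units, beside 1.24, 1.03 and 1.21 for mt-Atp6, mt-Co2 and mt-Co3. More diverged copies on chromosome 2 were close to 0 by comparison. Gm13340, at 97.6% identity to mt-Co1, reached 1.45 FPKM at most, and Gm13341, at 95.9% identity to mt-Co2, 4.41 FPKM. With the near-identical copies added, weighted by length, the order of levels became mt-Co1, mt-Co2, mt-Co3 and mt-Atp6 in all 6 libraries, and mt-Co1 exceeded mt-Co2 by 1.14-fold to 1.82-fold in place of 2.26-fold to 3.46-fold.

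The 5 genes with no near-identical copy, mt-Nd1, mt-Nd2, mt-Nd5, mt-Nd6 and mt-Cytb, differed by 1.39 to 2.05 log2 units between PDGFRα+ DEX and PBS. The 5 with a copy differed by 0.64 to 1.37 log2 units, so these ranges did not overlap, by a narrow margin. With the other PDGFRα+ DEX column, across tables, the ranges were 0.25 to 0.49 and 0.10 to 0.27 log2 units and did overlap. In the between-type table the ranges were -1.94 to -1.04 and -1.27 to -0.36 log2 units and did overlap. The part of shared reads in this was not tested. Across the 10 genes the PDGFRα+ difference had a Pearson r of -0.56 and a Spearman rho of -0.56 with the log2 mean level, and an r of 0.37 with position along the genome, as a description over genes that share precursors and libraries.

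The other 5 listed genes of the mitochondrial genome showed that protein-coding and ribosomal RNA genes did not move alike. The protein genes mt-Nd3, mt-Nd4l and mt-Atp8 were 1.96, 1.56 and 1.6 log2 units higher in PDGFRα+ DEX than in PBS. They differed by -2.15, -1.83 and -1.62 log2 units in the between-type table, where mt-Nd3 had 181 FPKM in PDGFRα+ and 809 FPKM in CD137+ cells. mt-Nd4l lies within the deposited span of mt-Nd4, and mt-Atp8 within that of mt-Atp6 and mt-Co3, so these may not be separate measurements. The ribosomal RNA gene mt-Rnr1 had 267 and 337 FPKM in PDGFRα+ DEX libraries, against 357 FPKM with PBS, and 545 and 343 FPKM in CD137+ DEX libraries, against 474 FPKM with PBS. mt-Rnr2 had 334 and 448 FPKM in PDGFRα+ DEX libraries, against 414 FPKM with PBS, and 811 and 750.3 FPKM in CD137+ DEX libraries, against 428 FPKM with PBS. Both ribosomal genes were thus lower, within 2-fold, in the PDGFRα+ DEX library of the treatment table than with PBS, where the 10 subunit genes were higher. The kit named in the labels selects RNA by its poly(A) tail, so these levels, like those of the 10 genes, are of the tailed RNA only.

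The nuclear partners of the encoded subunits differed by less. Of 186 nuclear genes in 12 lists, 184 reached 1 FPKM in a library of the PDGFRα+ treatment table, and 26 of them were called higher and 0 lower in the library labelled DEX, with a median of 0.45 log2 units, beside 15.5% of all genes called higher. That is 11 higher and 0 lower relative to the median gene, beside 9.42% of all genes higher, and 0 with the PDGFRα+ DEX library of the between-type table. The lists, like the 10 genes, were chosen with earlier results of these data known. Between the CD137+ DEX and PBS libraries, 0 of 186 were called, beside 1.04% of all genes, with a median of 0.03 log2 units. Between the cell types, 17 of 184 were lower in PDGFRα+ DEX and 1 was higher, beside 11.5% of all genes lower and 9.25% higher. The median was -0.40 log2 units. Relative to the median gene 7 were lower, beside 7.75% of all genes, and 2 higher, beside 12.5%. In PDGFRα+ DEX minus PBS the share called higher was close to that of all genes, so this count is not a result about the nuclear genes. Called lower were 0 of the 184, beside 7.71% of all genes. Of these 184 differences 151 were positive and 33 negative, and the median over all genes was 0.25 log2 units. The 1 higher gene was Cox7a1, a complex IV subunit isoform of muscle and brown fat, which is outside the rule for named genes and was picked after its value of 1.39 log2 units was seen. This value rests on low levels, 3.32 FPKM in PDGFRα+ and 0.65 FPKM in CD137+ cells. Between the DEX libraries of the treatment tables it had the opposite sign, -1.06 log2 units, with 1.73 FPKM in PDGFRα+ and 4.69 FPKM in CD137+ cells.

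Complex by complex, the encoded subunits were further apart than the nuclear ones. In complex I the 5 encoded genes had a median PDGFRα+ DEX minus PBS difference of 1.46 log2 units and the 36 nuclear genes 0.48, with 1 of 36 called higher, Ndufb7, at 45.1 FPKM with DEX and 16.7 FPKM with PBS. In complex III mt-Cytb differed by 2.05 log2 units and the 9 nuclear genes by a median of 0.57. The cytochrome c1 gene Cyc1 (60.5 FPKM with DEX, 26.6 FPKM with PBS) and Uqcr11 (54.6 FPKM with DEX, 23.3 FPKM with PBS) were the 2 called higher. In complex IV the medians were closest, 1.03 log2 units for the 3 encoded and 0.75 for the 12 nuclear genes, of which 3 were called higher.

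Those 3 were Cox5a, at 123 FPKM with DEX and 45.9 FPKM with PBS, Cox5b, at 88.5 FPKM with DEX and 42.4 FPKM with PBS, and Ndufa4, at 146 FPKM with DEX and 55.2 FPKM with PBS. In complex V mt-Atp6 differed by 1.24 log2 units and the 15 nuclear genes by a median of 0.48, with 3 called higher. They were the catalytic beta subunit Atp5b, at 653 FPKM with DEX and 235 FPKM with PBS, and the ring subunit genes Atp5g1 and Atp5g3, which differed by 1.18 and 1.00 log2 units. Complex II, which has no mitochondrially encoded subunit, had 0 of 4 genes called and a median of 0.48 log2 units. These counts stand beside 15.5% of all genes called higher. With differences taken from the median gene, 1 nuclear gene of complex I, 0 of complex III, 2 of complex IV and 1 of complex V were called higher.

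As levels, the mean FPKM of the encoded complex I genes over that of the nuclear ones was 46.3 and 23.0 in the PDGFRα+ DEX libraries of the treatment and between-type tables, against 20.2 with PBS, and 54.4 and 50.6 in the CD137+ DEX libraries, against 51.6 with PBS. For complex IV the same ratio of levels stayed between 38.8 and 45.5 in all 6 libraries. Complex III, by contrast, ran between 13.2 and 47.8, lowest in the PDGFRα+ PBS library.

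In the between-type table the same order appeared with the opposite sign. Its PDGFRα+ library and the PDGFRα+ PBS library were close, with 0.177% of all genes called, so this order is not an independent observation. The encoded and nuclear medians were -1.27 and -0.37 log2 units in complex I, -1.94 and -0.51 in complex III, -0.89 and -0.61 in complex IV and -1.19 and -0.35 in complex V. In complex I, 2 of 36 nuclear genes were called lower in PDGFRα+ DEX, beside 11.5% of all genes, and 0 relative to the median gene. They were Ndufa10 (15.6 FPKM in PDGFRα+, 35.3 FPKM in CD137+ cells) and Ndufb7 (21.2 FPKM in PDGFRα+, 46.7 FPKM in CD137+ cells). Cox5a, Atp5b and Atp5g1 differed by -1.32, -1.33 and -1.0 log2 units.

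**Figure D5:**
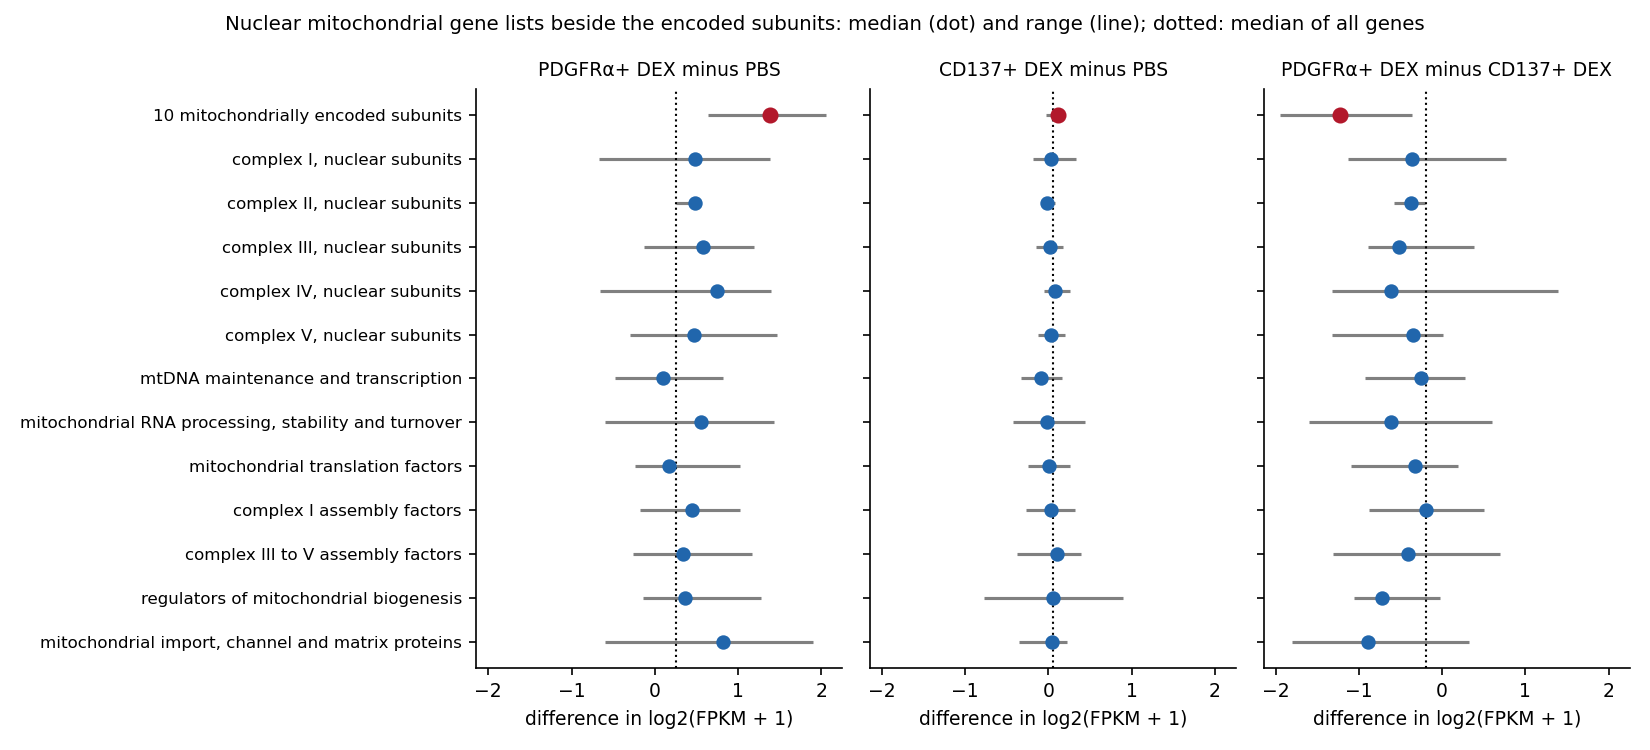
Difference in log2(FPKM + 1) of the 10 encoded genes (red) and of 12 lists of nuclear mitochondrial genes (blue) in the 3 comparisons; dots are medians over genes, lines run between the lowest and highest gene, and dotted lines mark the median of all genes. The encoded genes have the median furthest from 0 in the outer panels, 1.38 and -1.22, and in the middle panel every median lies within 0.12 of 0.

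The plot of list medians also covers genes that make, process and translate mitochondrial RNA. Those of transcription and DNA maintenance stood near the median gene, with 0 of 15 called in each table and medians of 0.10 log2 units (PDGFRα+ DEX minus PBS), -0.09 (CD137+ DEX minus PBS) and -0.25 (PDGFRα+ minus CD137+, DEX). Tfam, which packages mitochondrial DNA and starts transcription, had 10.9 and 10.8 FPKM in the PDGFRα+ DEX libraries of the treatment and between-type tables, against 8.41 FPKM with PBS, and 10.3 and 14.7 FPKM in the CD137+ DEX libraries, against 11.6 FPKM with PBS. Polrmt, the mitochondrial RNA polymerase, had 6.51 and 3.17 FPKM in PDGFRα+ DEX libraries, against 3.24 FPKM with PBS, and 6.25 and 6.94 FPKM in CD137+ DEX libraries, against 8.08 FPKM with PBS. Tfb2m, a transcription factor that works with this polymerase, ran between 9.56 and 14.8 FPKM in the 6 libraries.

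Of 21 RNA processing and stability factors, 6 were called higher in PDGFRα+ DEX than in PBS, with a median of 0.56 log2 units, beside 15.5% of all genes. In CD137+ cells 0 were called (-0.01 log2 units), and 3 were lower in the between-type table (-0.62 log2 units), beside 11.5% of all genes. Relative to the median gene 2 of 21 were called higher in PDGFRα+ DEX than in PBS, beside 9.42% of all genes, and 2 of 21 lower in the between-type table. Lrpprc, whose product binds and stabilises mitochondrial mRNAs, had 15.0 and 5.16 FPKM in the PDGFRα+ DEX libraries of the treatment and between-type tables, against 4.92 FPKM with PBS. In CD137+ cells it had 12.5 and 17.6 FPKM in the DEX libraries, against 13.2 FPKM with PBS. As for Slirp, Tfb2m, Polrmt, Tbrg4, Tufm, Cox5a and Atp5b, but not Tfam, its 2 lowest libraries were those in which the 10 encoded genes were lowest. These 2 libraries were close, with 0.177% of all genes called between them, and the share of all genes with this order was not computed. Slirp, the partner of Lrpprc, differed less, with 7.41 and 6.2 FPKM in PDGFRα+ DEX libraries, against 5.14 FPKM with PBS. In CD137+ cells it had 7.22 and 6.91 FPKM in the DEX libraries, against 7.53 FPKM with PBS. Others called higher in PDGFRα+ DEX than in PBS were Tbrg4 (1.30 log2 units), Fastkd2 (1.24) and the RNase gene Rexo2 (1.23). In the between-type table Lrpprc, Tbrg4 and Ptcd3, a factor of the mitochondrial ribosome, were lower in PDGFRα+ cells, at -1.59, -1.53 and -1.13 log2 units.

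Translation factors had 1 of 12 genes called in PDGFRα+ DEX minus PBS and 1 of 12 in the between-type table, both times the elongation factor Tufm, at 39.96 FPKM with DEX and 19.2 FPKM with PBS, and at 17.8 FPKM in PDGFRα+ and 39.0 FPKM in CD137+ cells. Of 13 complex I assembly factors, Ndufaf4 was called higher in PDGFRα+ DEX than in PBS, by 1.02 log2 units, and 0 were called in the between-type table. Among 23 assembly factors of complexes III to V, the copper chaperone Sco2 (1.17 log2 units) and Tmem70 (1.09), which helps build the ATP synthase, were called higher in PDGFRα+ DEX than in PBS. Sco2 was also called lower in the between-type table, at -1.31 log2 units. These counts stand beside 15.5% of all genes called higher in PDGFRα+ DEX than in PBS and 11.5% called lower in the between-type table. When set against the median gene, 0 genes of these 3 lists were called higher in PDGFRα+ DEX than in PBS.

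Among the regulators of mitochondrial biogenesis Pprc1, a coactivator related to PGC-1α, had 19.5 FPKM in PDGFRα+ cells with DEX and 7.47 FPKM with PBS, and 11.1 FPKM in CD137+ cells with DEX and 19.7 FPKM with PBS. It was the 1 of 7 measured regulators called higher in PDGFRα+ DEX, beside 15.5% of all genes. It was also the 1 of 7 called lower in the between-type table, beside 11.5% of all genes. Ppargc1a, which encodes PGC-1α itself, was listed in the CD137+ treatment table alone, at 0.498 FPKM with DEX and 1.05 FPKM with PBS. Of the 12 nuclear lists, import, channel and matrix proteins had the median furthest from 0, with 0.82 log2 units and 6 of 17 genes higher in PDGFRα+ DEX than in PBS, and -0.90 log2 units and 6 of 17 lower in the between-type table, beside 15.5% of all genes higher and 11.5% lower. The counts fell to 4 of 17 higher and 2 of 17 lower relative to the median gene, beside 9.42% and 7.75% of all genes. Tomm40, the outer-membrane import pore, had 38.3 FPKM with DEX and 9.56 FPKM with PBS in PDGFRα+ cells, and the chaperonin Hspd1 had 186 FPKM with DEX and 56.4 FPKM with PBS.

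The genes whose levels were most like the mean of the 10 over the 6 median-centred libraries were, by Pearson r, Gm10925 (0.998), Chpf (0.998), Srsf6 (0.997), Gm28661 (0.996) and Phlda3 (0.995), among 6139 genes with a mean of at least 10 FPKM. Gm10925 and Gm28661 are the nuclear copies described above. Chpf, a chondroitin polymerizing factor, had 42.2 and 14.6 FPKM in PDGFRα+ DEX libraries against 10.6 FPKM with PBS, and 59.8 and 51.3 FPKM in CD137+ DEX libraries against 50.4 FPKM with PBS. Srsf6, a splicing factor, had 71.1 and 37.0 FPKM in PDGFRα+ DEX libraries against 33.8 FPKM with PBS, and 75.6 and 70.7 FPKM in CD137+ DEX libraries against 74.96 FPKM with PBS. With 6 libraries a close likeness is common: 266 genes, 4.33%, exceeded an r of 0.95. By Spearman's rho 45 genes tied at 1, and 0 of the 5 named genes stayed among the first 5.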

How the data were processed

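The labels' protocols name Trizol extraction and Illumina's TruSeq RNA kit. The submitters' processing notes name Cufflinks, Cuffdiff and mm10, with no version; no aligner or annotation is given in the sources used here. Per the file headers, the authors' 3 tables hold FPKM, a log2 ratio, a p-value and a q-value of each gene. Recomputed log2 ratios were within 3.92e-05 of the deposited ones, which were placeholders for the 55 to 195 genes per table listed at 0 in 1 library. Every gene reached at least 0.386 FPKM in its higher library. The authors' p-values and q-values compare a pair of libraries and are quoted as the authors' own. All columns of values were mapped to a sample.

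Differences of log2(FPKM + 1) were computed for all listed genes. The pseudocount of 1 FPKM understates differences of low genes. FPKM is relative to the whole library, so differences are also given relative to the median gene. Depth is unknown, so no counting error is given. The labels do not say that libraries came from separate cultures, and no test was made.

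The 10 genes and all lists were chosen with earlier results of these data known. Named genes were the 10, up to 4 genes of each list with the largest difference at 5 FPKM or more, Lrpprc, Slirp, Tfam, Polrmt, Tfb2m and Ppargc1a whatever their values, and the 5 genes most like the 10. The alternatives were other pseudocounts, minimums, thresholds and scalings, the authors' log2 ratio and the other DEX columns. After seeing the data, adding the nuclear copies and leaving out the genes that have one were included. Copies were found by BLAST 2.17.0 of the 10 transcripts against GENCODE M21 transcripts (GRCm38, the same build as mm10), at 95% identity or more, and called near-identical at 99% or more. Scripts were tested on simulated data. They ran under Python 3.11.15 with pandas 2.3.3, numpy 2.4.6, matplotlib 3.10.9 and scipy 1.17.1.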

Additional observations from a re-analysis of the deposited data

Results flagged for a closer look

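In the treatment tables, for 23 of the values, the difference between DEX and PBS had opposite signs in PDGFRα+ and CD137+ cells. The values looked at were the 10 genes, the other listed mitochondrial genes, the list medians and genes named above. The share of all genes with opposite signs was not computed, so the count is not a result about these genes. CD137+ differences lay near 0, with a median of 0.05 log2 units over all genes, so small differences can give opposite signs. With 1 library per group, whether the difference in direction exceeds the spread between libraries was not tested. Each gap below is the PDGFRα+ difference minus the CD137+ difference, in log2 units. For mt-Co1 it was 0.67, made of 0.64 in PDGFRα+ and -0.03 in CD137+ cells. The mitochondrial ribosomal RNA genes had gaps of the other sign, -0.62 for mt-Rnr1 (-0.42 in PDGFRα+ and 0.20 in CD137+ cells) and -1.23 for mt-Rnr2 (-0.31 in PDGFRα+ and 0.92 in CD137+ cells).

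Of the list medians, complex II had a gap of 0.50, mitochondrial DNA maintenance and transcription 0.19, and RNA processing, stability and turnover 0.57. Of the transcription genes, Polrmt had a gap of 1.15, Tfb2m 0.595 and Tfam 0.49. Of the RNA processing genes, Lrpprc had 1.5, Tbrg4 1.46, Ptcd3 0.92 and Slirp 0.51. Of the nuclear subunits, Atp5b had 1.59, Cox5a 1.45, Ndufb7 1.39, Cyc1 1.21 and Atp5g3 1.03. Pprc1 had 2.05 (1.27 in PDGFRα+ and -0.78 in CD137+ cells), Tufm 1.26, Cs 1.16, Ndufaf4 1.14 and Myc -1.04. In CD137+ cells most of these differences were within 0.2 log2 units of 0, the exceptions being mt-Rnr1, mt-Rnr2, Polrmt, Pprc1, Tufm, Cs and Myc.

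With the other DEX columns, set against the same PBS libraries across tables, 17 of these 23 values had the same sign in both cell types, and 6 kept their opposite signs. Those 6 were mt-Co1 (gap 0.32), the complex II median (0.25), Slirp (0.34), Cyc1 (0.43), Atp5g3 (0.17) and Myc (-0.73). For mt-Rnr2 the difference was then 0.11 in PDGFRα+ and 0.81 in CD137+ cells, and for mt-Rnr1 -0.08 in PDGFRα+ and -0.46 in CD137+ cells. Lrpprc differed by 0.06 in PDGFRα+ and 0.39 in CD137+ cells, so that its gap was -0.33, and the RNA processing median by 0.10 in PDGFRα+ and 0.11 in CD137+ cells. The opposite directions of the other 17 values thus rest on the DEX columns of the treatment tables.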

How the results depend on the processing

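No paired analysis was possible because each group has 1 sample by the labels, so no replicate could be left out either. Of 240 differences recomputed for the 10 genes, 204 kept their direction and side of the threshold, 27 fell below 2-fold, 2 passed it and 7 moved otherwise. Those 7 were CD137+ differences near 0, which took a negative sign with the other DEX column. The other DEX columns gave the largest changes. Then the median of the 10 was 0.25 and the count 0 in PDGFRα+ cells, -0.045 in CD137+ cells, and -0.25 with a count of 0 between the cell types. The nuclear list counts became 0, 2 and 4 with these columns. Rescaling to the median gene or the upper quartile gave a between-type median of -0.98 or -0.96. Under the upper quartile 4 of the 10 were called, against 7 as deposited. The share of all genes under that scaling is not given here, so this count is not a result about the 10. At 4-fold the counts of the 10 were 1 (PDGFRα+ cells, beside 526 of 13181 genes in all) and 0 (between types). Only the 5 genes without a near-identical copy gave 5 of 5 called higher in PDGFRα+ cells, beside 15.5% of all genes. Rescaling by the median gene, the upper quartile or the FPKM outside the mitochondrial genome gave nuclear list medians of -0.022, -0.003 and -0.020 in CD137+ cells.

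The count of nuclear list genes, 26 in PDGFRα+ cells and 18 between types, was 15 and 8 with a pseudocount of 5 FPKM, 11 and 9 relative to the median gene, 12 and 9 by the upper quartile, 76 and 68 at 1.5-fold and 0 and 0 at 4-fold. It was 30 between types when scaled to the FPKM outside the mitochondrial genome. In CD137+ cells it was 0, but 1 by the authors' log2 ratio and 2 at 1.5-fold. With near-identical copies added the 10 genes took 9.97% and 4.98% of summed FPKM in PDGFRα+ DEX libraries against 4.59% with PBS, and 10.97% and 10.1% in CD137+ DEX libraries against 10.7% with PBS. The cause of these changes was not tested, except that a threshold or a set of genes changes a count by its own construction. Over all genes, the calls in PDGFRα+ cells, CD137+ cells and between types were 3065, 128 and 2676, and 1338, 46 and 1222 with a pseudocount of 5 FPKM, 6233, 696 and 5745 at 1.5-fold, 526, 19 and 571 at 4-fold, 1812, 55 and 1581 at 10 FPKM or more, and 22, 1534 and 1775 with the other DEX columns. In CD137+ cells they were 375 with a pseudocount of 0.1 FPKM and 423 by the authors' log2 ratio.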
